A study of Homo sapiens with 3 samples.

Results

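Short-chain dehydrogenases were examined as a gene family in a pooled CRISPR knockout screen of metabolic genes. The members were the genes whose symbol in the library begins with HSD17B, HSD11B, HSD3B, HSDL, RDH, DHRS or SDR, together with WWOX. HSD17B4, HSD17B7, HSD17B8 and HSD17B12 were left out by that rule. This gave 43 of the 2978 genes in the library and 430 of its 29698 gene-targeting guides. Of those guides, 401 reached 100 counts in the initial population, and all 43 genes kept between 7 and 10 guides.

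The screen was performed in MIA PaCa-2, an established human pancreatic ductal adenocarcinoma cell line, transduced with a lentiviral guide library and selected in puromycin. There were 3 libraries: the initial population at day 0 without treatment, cells grown for 14 days in DMSO, the solvent control, and cells grown for 14 days in apilimod, which blocks the lipid kinase PIKfyve. According to the labels apilimod was used at 200 nM, but the methods name a different concentration for these cells, and which applies is unresolved here. Each group was 1 library, so differences between cultures could not be measured, and each test below compares these libraries and not the conditions. The libraries held between 24695476 and 26276517 counts, and the median member guide had 623, 622 and 612 counts.

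Short-chain dehydrogenases are enzymes that share a nucleotide-binding fold and use NAD or NADP to interconvert alcohol and carbonyl groups. Their substrates include steroid hormones, retinoids, fatty acyl chains and polyprenols, and several members reside in mitochondria, in peroxisomes or on lipid droplets. WWOX carries a short-chain dehydrogenase domain behind a pair of WW domains, which bind proline-rich motifs in other proteins. Its gene spans a common fragile site, and it has been studied mainly as a candidate tumour suppressor. In a knockout screen, a guide that slows growth of the cells carrying it becomes rarer over time.

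The score of a gene is the mean log2 change of its guides, given relative to the median of 487 control guides that cut intergenic sequence. A negative score means that the guides of a gene became rarer than the control guides. Each SD is taken over the guides of a gene within these libraries. An exact rank-sum test, two-sided, set the guides of each gene against those control guides, and genes with an adjusted p under 0.05 over 2969 genes are referred to as called. As a second rule without a test, scores at least 0.5 from the control median were counted. DMSO and apilimod were each set against the same initial library, so these 2 comparisons share that library.

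WWOX guides were more abundant in DMSO than in apilimod. In genome build hg38, GENCODE places WWOX on the forward strand at chr16:78099400-79212667, with 1113268 bases and 9 coding exons. Guide 1 had 1339 counts at day 0, 1321 after DMSO and 863 after apilimod. Guide 2 had 400, 627 and 436 counts in the same order. Guide 3 had 225, 363 and 232 counts. These 3 guides were lower in apilimod than in DMSO, and guides 2 and 3 stood highest in DMSO.

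In the same order, guide 4 of WWOX had 634, 707 and 407 counts. Guide 5 had 470, 709 and 462 counts. Guide 6 had 394, 513 and 376 counts. All of these stood highest in DMSO and below the initial population in apilimod. Guide 7 had 895, 1114 and 1122 counts and was the single WWOX guide that was not lower in apilimod than in DMSO.

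Guide 8 of WWOX had 559, 974 and 321 counts, the widest gap between the treated and the solvent library. Guide 9 had 907, 1386 and 994 counts. Guide 10 had 474, 455 and 287 counts. Guide 9 remained above its initial count in apilimod, while guides 8 and 10 fell below theirs. Over all guides, WWOX had 6297 counts at day 0, 8169 in DMSO and 5500 in apilimod.

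**Figure D1:**
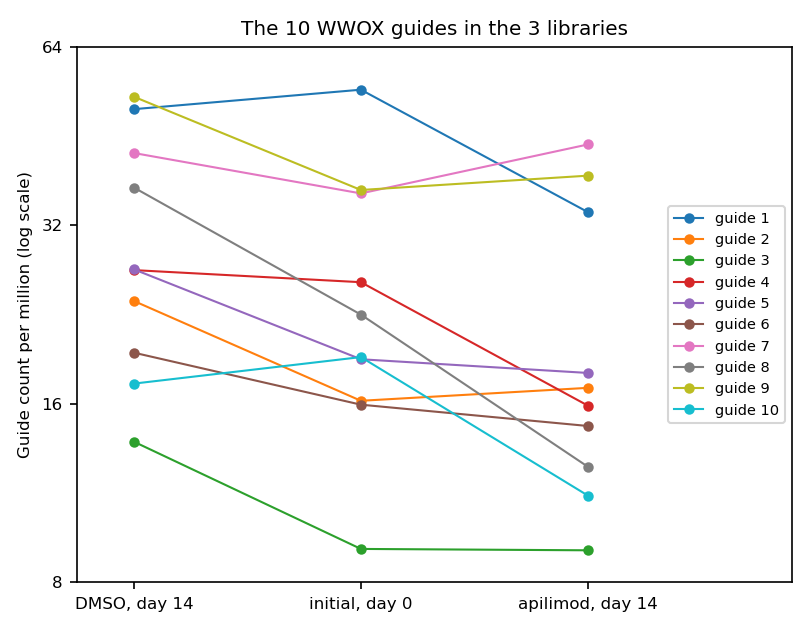
Abundance of the 10 WWOX guides in DMSO at day 14, in the initial population at day 0 and in apilimod at day 14, as CPM (counts relative to the library total) on a log axis, with 1 line per guide. A total of 9 lines end lower in apilimod than in DMSO, and only guide 7 does not.

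The score of WWOX was 0.18 ± 0.30 (SD, n = 10 guides) in DMSO, with 7 of 10 guides above the control median and no call by the exact rank-sum test (adjusted p = 0.28). In apilimod it was -0.50 ± 0.42 (SD, n = 10 guides), with 9 of 10 guides below the control median and a call as lower (adjusted p = 0.0075, exact rank-sum test). Directly between the 2 treated libraries, the log2 ratio of apilimod to DMSO was -0.61 ± 0.40 (SD, n = 10 guides) relative to the control median. Guide 8 stood lowest at -1.57, guide 7 highest at 0.03, and the others lay between -0.77 and -0.42. For this comparison each arm was scaled to a median of -1 over 28 nucleotide synthesis genes, and the scaled difference, centred and in units of its SD across genes, is called z. WWOX had a z of -2.26, the 31st lowest of 2969 genes, and was called lower (adjusted p = 0.0024, exact rank-sum test).

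WWOX was the only one of the 43 members that was called in apilimod against DMSO. Of 26 other short-chain dehydrogenases outside the rule, 1 was also called lower in that comparison. Across all genes 0.573% were called lower and 0.202% higher in that comparison. Leaving out the most changed guide of every gene, which for WWOX is guide 8, gave z = -2.35 and an adjusted p of 0.018 by the exact test. It was lost when all gene-targeting guides took the place of the control guides in the exact test (adjusted p = 0.077, z = -2.22). By the rule without a test, 1 member was at least 0.5 lower and 2 members at least 0.5 higher, against 3.84% and 3.17% of all genes.

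**Figure D2:**
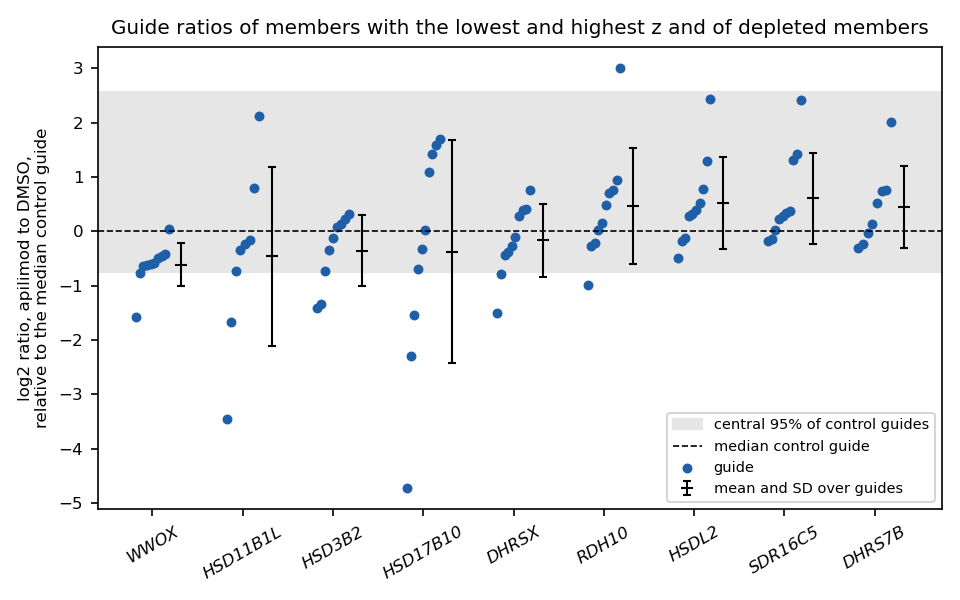
Log2 ratio of apilimod to DMSO for every guide of 9 members (points), with the mean and SD over guides, relative to the median control guide (dashed line). The grey band is the central 95% of control guides, from -0.74 to 2.57. Of the WWOX guides (SD 0.40), 9 of 10 lie below the dashed line, but only guides 4 and 8 lie below the band. Guides of HSD11B1L and HSD17B10 spread in both directions. Some members not shown spread less than WWOX, among them RDH11 (SD 0.27), RDH12 (0.30) and RDH13 (0.31).

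The other members at the ends of the apilimod to DMSO comparison were not called. SDR16C5, an epidermal retinol dehydrogenase, had 9953, 12115 and 16935 counts in the initial, DMSO and apilimod libraries. Its log2 ratio was 0.61 ± 0.84 (SD, n = 10 guides, adjusted p = 0.40, exact test). Guide 7 alone went from 411 counts in DMSO to 2154 in apilimod, and guides 3 and 4 also more than doubled. The remaining SDR16C5 guides had log2 ratios between -0.18 and 0.38.

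HSDL2, a peroxisomal protein with a sterol carrier domain, had 4662, 4500 and 6073 counts. Its log2 ratio was 0.52 ± 0.84 (SD, n = 10 guides, adjusted p = 0.54, exact test). Neither HSDL2 nor SDR16C5 was 0.5 higher once the gene score was the median guide or the most changed guide of every gene was left out. The lowest z after WWOX belonged to HSD11B1L at -1.45, HSD3B2 at -1.25 and HSDL1 at -1.22. Only 4 of the 43 members had an unadjusted p under 0.05 in this comparison, which is 9.30%, beside 10.8% of all genes. The median member log2 ratio was -0.04, and that of all genes was -0.02.

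Most members stayed near the control guides during growth in DMSO. A total of 4 members were called lower, which is 9.3%, beside 18.9% of all genes. Those members were HSD17B10, DHRS7B, DHRSX and RDH10. By the rule without a test 5 members (11.6%) were at least 0.5 lower, beside 18.2% of all genes, the fifth being RDH8. No member was called higher, beside 0.842% of all genes, and none was 0.5 higher, beside 0.0674%.

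The median member score in DMSO was -0.20, against -0.17 over all genes. Below the control median lay 36 of 43 members (83.7%), beside 75.5% of all genes. Of single guides, the median was -0.10 for members and -0.14 for all gene-targeting guides. The highest member scores in DMSO were 0.22 for RDH14, a retinal reductase, 0.18 for WWOX and 0.17 for HSD17B11, a lipid droplet protein. None of the 3 was called.

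**Figure D3:**
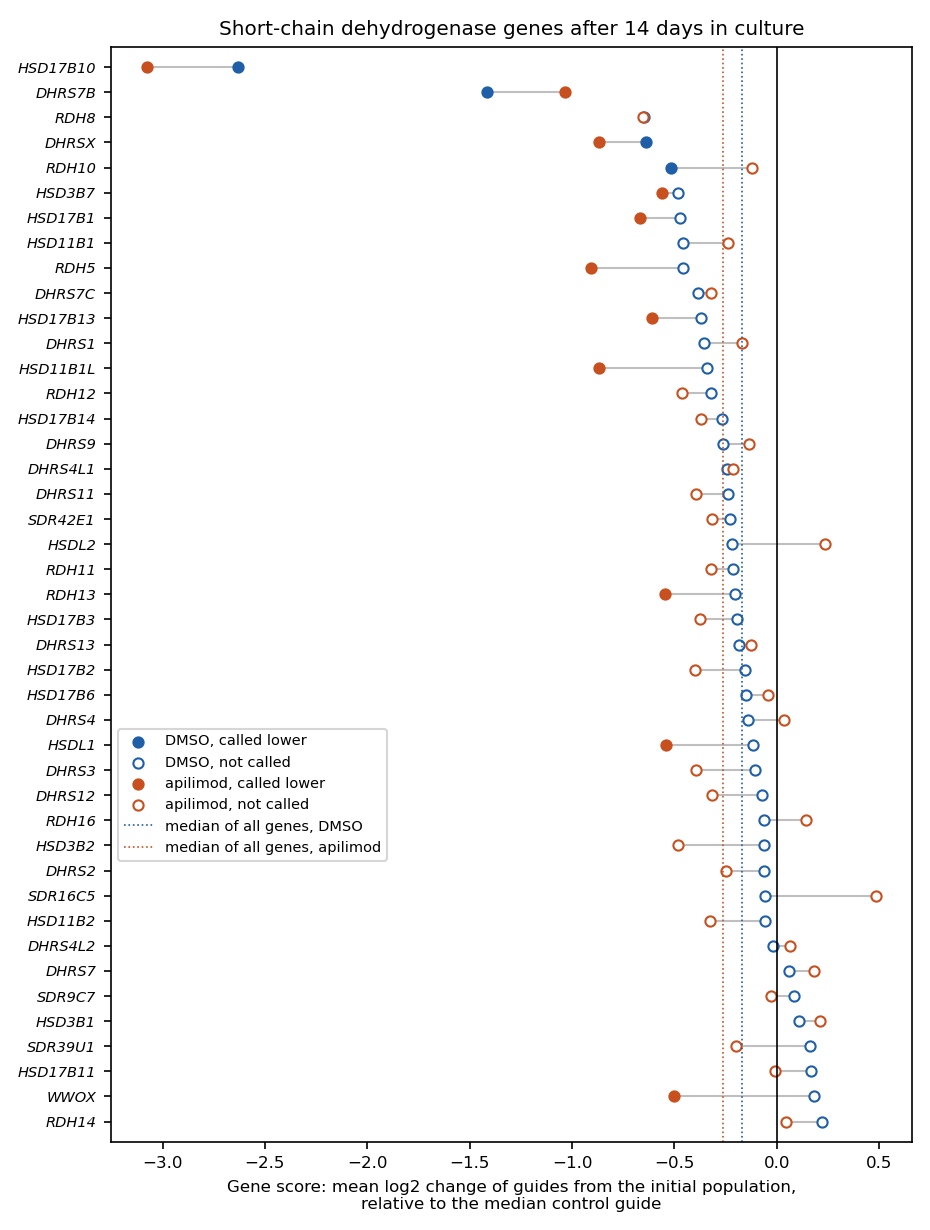
Scores of the 43 members in DMSO (blue) and apilimod (orange), as mean log2 change of guides from the initial population relative to the median control guide, ordered by the DMSO score. Filled points were called lower and dotted lines mark the medians of all genes, -0.17 in DMSO and -0.26 in apilimod. HSD17B10 lies lowest and DHRS7B next in both, although in apilimod DHRS7B (-1.03) is close to RDH5 (-0.91). WWOX crosses from 0.18 to -0.50.

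HSD17B10 had the lowest score of the family in both treated libraries. The protein is a mitochondrial dehydrogenase of isoleucine breakdown and also a subunit of mitochondrial RNase P, which cuts transfer RNAs out of mitochondrial transcripts. Its gene lies on the reverse strand at chrX:53431258-53434370. Its guides summed to 6119 counts at day 0, 1582 after DMSO and 1953 after apilimod.

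All 10 HSD17B10 guides were below the control median in DMSO, from -6.85 for guide 5 to -0.89 for guide 7. The DMSO score was -2.63 ± 1.82 (SD, n = 10 guides, adjusted p = 3.5e-14, exact rank-sum test), the 20th lowest of 2969 genes. In apilimod the score was -3.08 ± 3.08 (SD, n = 10 guides), and 9 of 10 guides were below the control median. Guide 1 was the exception, with 233, 144 and 465 counts. Guide 5 had 491, 4 and 0 counts and guide 4 had 106, 26 and 0 counts, so their apilimod values of -9.22 and -7.02 depend on the pseudocount, and a count of 0 still allows up to 3 counts. With a pseudocount of 10 the apilimod score was -2.38. The apilimod to DMSO ratio was -0.38 ± 2.05 (SD, n = 10 guides), with guides on both sides, and z was 0.06.

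DHRS7B is a peroxisomal reductase that makes the precursor of ether phospholipids, and its gene lies on the forward strand at chr17:21123364-21193265. Its guides summed to 7381, 3344 and 3922 counts. The score was -1.42 ± 0.67 (SD, n = 8 guides, adjusted p = 1.9e-05, exact rank-sum test) in DMSO and -1.03 ± 0.78 (SD, n = 8 guides, adjusted p = 0.0019, exact rank-sum test) in apilimod. In both libraries 7 of 8 guides were below the control median. Guide 7 was the exception in DMSO, with 833 counts at day 0 and 1017 in DMSO.

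Guide 1 of DHRS7B was the exception in apilimod, with 151, 58 and 234 counts. The log2 ratio of apilimod to DMSO was 0.45 ± 0.76 (SD, n = 8 guides) and z was 2.24, without a call (adjusted p = 0.40, exact rank-sum test). DHRS7B was called higher when N-glycosylation precursor genes replaced nucleotide synthesis genes as the reference (z = 2.78, adjusted p = 0.040, exact test). That reference raised the genes called higher from 6 to 54 of 2969.

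Of the other ether lipid genes, 6 of 10 listed were scored, and CEPT1, which adds the head group, was the only one called. CEPT1 was called lower in both treated libraries, as were 18.9% of all genes in DMSO and 29.0% in apilimod. Its score was -0.78 ± 0.42 (SD, n = 9 guides) in DMSO and -1.16 ± 0.53 (SD, n = 9 guides) in apilimod. GNPAT and AGPS, which act just before DHRS7B, scored -0.35 and -0.13 in DMSO and -0.23 and 0.10 in apilimod. The median of the list was -0.11 in DMSO and 0.10 in apilimod, above that of all genes in both.

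DHRSX takes part in making dolichol, the lipid that carries sugars for N-glycosylation. Its gene is annotated on the reverse strand at chrX:2219506-2502805, in the part of the X chromosome shared with Y. Its guides summed to 11166, 8740 and 8031 counts. The score was -0.64 ± 0.61 (SD, n = 10 guides, adjusted p = 0.0067, exact test) in DMSO, with 9 of 10 guides below the control median. In apilimod it was -0.87 ± 1.00 (SD, n = 10 guides, adjusted p = 0.017, exact test), with 7 of 10 below. Guide 7 went from 2982 counts to 1211 and 985, whereas guide 3 went from 1991 to 3014 and 2746. The DMSO call was lost at a minimum of 300 initial counts (adjusted p = 0.061) and the apilimod call without the most changed guide of every gene (adjusted p = 0.064), both by the exact test.

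Most other dolichol genes were called too. Of 6 listed genes 5 were scored, and 4 of those were called lower in each treated library, beside 18.9% and 29.0% of all genes. DHDDS, a subunit of the enzyme that builds the polyprenol chain, scored -2.17 ± 1.78 (SD, n = 10 guides) in DMSO and -3.09 ± 2.73 (SD, n = 10 guides) in apilimod. SRD5A3, which has been placed at the same polyprenol step as DHRSX, was not called and scored 0.01 and 0.09. DHRSX, DHRS7B, HSD17B11 and HSD17B13 together formed the membrane lipid and dolichol group. Of these, 2 of 4 were called lower in DMSO and 3 of 4 in apilimod, against the same shares of all genes, 18.9% and 29.0%. The group was drawn up with earlier results of these data known, so its counts are no test of the group. HSD17B11 and HSD17B13 are also counted among the steroid dehydrogenases.

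RDH10 oxidises retinol to retinal on the way to retinoic acid. Its guides summed to 9000, 7953 and 10195 counts. The score was -0.51 ± 0.67 (SD, n = 10 guides, adjusted p = 0.0082, exact test) in DMSO, with 9 of 10 guides below the control median. In apilimod the score was -0.12 ± 1.10 (SD, n = 10 guides, adjusted p = 0.30, exact test). Guide 10 had 195 counts at day 0, 179 in DMSO and 1421 in apilimod. The ratio between the treated libraries, 0.46 ± 1.07 (SD, n = 10 guides), was not called. With all gene-targeting guides as the null, neither RDH10 nor DHRSX was called in DMSO (adjusted p = 0.39 and 0.22, exact test).

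RDH8, a photoreceptor retinal reductase, had 9788, 8975 and 8835 counts. Its scores of -0.65 ± 1.03 in DMSO and -0.66 ± 1.15 in apilimod (SD, n = 10 guides) were not called (adjusted p = 0.12 and 0.16, exact test).

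In apilimod against the initial population 11 members were called lower, which is 25.6%, beside 29.0% of all genes. The same number of members was at least 0.5 lower, beside 27.2% of all genes, but RDH8 was among these and WWOX, at -0.4999, was not. No member was called higher, where 0.236% of all genes were, and none was 0.5 higher, where 0.606% were. The median member score was -0.32, against -0.26 over all genes. Below the control median lay 35 of 43 members (81.4%), beside 80.4% of all genes.

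The control guides were more spread in the apilimod comparison, with an SD of 0.73 against 0.40 in DMSO. The 20 control guides with under 200 initial counts had a median of 1.69 relative to all control guides in apilimod and -0.20 in DMSO, and without them HSD3B7 lost its call in apilimod (adjusted p = 0.061, exact test) while 10 of the 11 members kept theirs. The median of all gene-targeting guides was -0.25 in apilimod. With those guides as the null, only HSD17B10 of the 11 members was still called lower, and SDR16C5 was called higher. Under that null, calls over all 2969 genes went from 862 to 225 lower and from 7 to 82 higher.

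Of the 14 steroid dehydrogenases 0 were called in DMSO and 4 were called lower in apilimod, beside 18.9% and 29.0% of all genes. The 4 were HSD11B1L, HSD17B1, HSD17B13 and HSD3B7. The group median was -0.22 in DMSO and -0.38 in apilimod. The median log2 ratio between the treated libraries was -0.11. No member of the group was called in that direct comparison.

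HSD17B1, which turns estrone into estradiol, had 6523, 6013 and 5088 counts, and its apilimod score was -0.67 ± 0.58 (SD, n = 8 guides, adjusted p = 0.0071, exact test). HSD17B13, a lipid droplet protein of liver cells, had 5312, 5770 and 4287 counts and an apilimod score of -0.61 ± 0.46 (SD, n = 8 guides, adjusted p = 0.0055, exact test). HSD3B7, an enzyme of bile acid synthesis, had 4403, 4053 and 3708 counts. Its apilimod score of -0.56 ± 0.83 (SD, n = 10 guides) stood just inside the threshold (adjusted p = 0.048, exact test). In DMSO the same 3 genes scored -0.47, -0.37 and -0.48. Without a minimum of initial counts the apilimod scores of HSD17B1 and HSD17B13 were -0.31 and -0.14 and neither was called, and at a minimum of 30 that of HSD17B13 was -0.36. HSD3B7 lost its call without the most changed guide of every gene, at -0.38 (adjusted p = 0.15, exact test).

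HSD11B1L had 5807, 5025 and 4947 counts, and its guides moved both ways. Guide 1 had 166, 177 and 15 counts and guide 4 had 889, 402 and 123, whereas guide 10 had 107, 246 and 1054. The apilimod score was -0.87 ± 2.05 (SD, n = 8 guides, adjusted p = 0.040, exact test). The call was lost at a minimum of 30 initial counts, without a minimum and without the most changed guide of every gene, with scores of -0.71, -0.71 and -0.47.

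HSD11B1 and HSD11B2, which interconvert cortisone and cortisol, scored -0.24 and -0.33 in apilimod and were not called. Genes of steroid synthesis outside the family had a median of 0.00 in DMSO and -0.16 in apilimod over 18 genes. In DMSO 4 of the 18 were called lower, namely FDXR, FDX1, POR and CYP11A1, beside 18.9% of all genes. In apilimod 3 of the 18 were called lower, beside 29.0% of all genes. FDXR and FDX1 pass electrons to mitochondrial P450 enzymes, and they scored -2.95 ± 1.56 and -2.10 ± 2.31 (SD, n = 10 guides) in DMSO. CYP11A1, the first enzyme of steroid synthesis, scored -0.43.

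The retinol and retinal dehydrogenases held 15 members with a median of -0.22 in DMSO and -0.21 in apilimod. The group includes DHRS4L1, annotated as a pseudogene without coding exons, and the apilimod median is the score of that gene. Of these 1 was called lower in DMSO, RDH10, and 2 in apilimod, RDH5 and RDH13, beside 18.9% and 29.0% of all genes. RDH5, a retinol dehydrogenase of the retinal pigment epithelium, had 7030, 6593 and 5716 counts. Its apilimod score was -0.91 ± 1.03 (SD, n = 10 guides, adjusted p = 0.0015, exact test), with 9 of 10 guides below the control median. Guide 2 was low in both treated libraries, with 462, 67 and 66 counts, while guide 6 was low in apilimod only, with 228, 282 and 51.

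RDH13, which is located in mitochondria, had 13248, 14228 and 11250 counts. All 10 of its guides were below the control median in apilimod, from -1.03 to -0.13, and the score was -0.55 ± 0.32 (SD, n = 10 guides, adjusted p = 0.00069, exact test). In DMSO 9 of 10 guides were below, at a score of -0.20 ± 0.33 (SD, n = 10 guides) without a call. The log2 ratio between the treated libraries was -0.28 ± 0.31 (SD, n = 10 guides), which was not called (adjusted p = 0.45, exact test). Of 13 scored retinoid handling genes outside the family, 1 was called lower in DMSO and 2 in apilimod. Across all genes the shares were 18.9% and 29.0%. RETSAT, a retinol saturase, was called lower in both treated libraries and CYP26B1, which degrades retinoic acid, in apilimod.

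The mitochondrial or peroxisomal group held 9 members, 2 of which were called lower in DMSO and 4 in apilimod, beside 18.9% and 29.0% of all genes. Besides HSD17B10, DHRS7B and RDH13, the fourth was HSDL1, with 3747, 4117 and 2931 counts. All 7 scored HSDL1 guides were below the control median in apilimod, at a score of -0.54 ± 0.30 (SD, n = 7 guides, adjusted p = 0.0058, exact test). In DMSO the score was -0.11 ± 0.71 (SD, n = 7 guides). Without a minimum of initial counts all 10 guides entered, and the apilimod score turned to 0.07.

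The other members of the mitochondrial or peroxisomal group were not called in any comparison. SDR39U1 scored 0.16 ± 0.58 in DMSO and -0.20 ± 1.06 in apilimod (SD, n = 10 guides). DHRS1 scored -0.35 and -0.17, and DHRS2 -0.06 and -0.25. The 5 members with no role group here, DHRS7, DHRS12, DHRS13, SDR42E1 and SDR9C7, scored between -0.23 and 0.08 in DMSO and between -0.32 and 0.18 in apilimod, and none of them was called.

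Some members are close copies of each other in their coding sequences, so a guide against one may also match another. DHRS4, DHRS4L1 and DHRS4L2 lie side by side on chromosome 14. In DHRS4, 84 of 127 possible target sites of 20 bases beside an NGG motif also occur in transcripts of another member, and in DHRS4L2, 76 of 110 do. DHRS4L1 is annotated as a pseudogene without coding exons. These 3 genes scored -0.14, -0.24 and -0.02 in DMSO and 0.04, -0.21 and 0.06 in apilimod, and none was called.

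HSD3B1 and HSD3B2, which catalyse an early step of steroid hormone synthesis, share 41 of 161 and 43 of 161 such sites. They scored 0.11 and -0.06 in DMSO. In apilimod HSD3B1 had the third highest member score, 0.21 ± 0.76 (SD, n = 9 guides), and HSD3B2 scored -0.48 ± 0.70 (SD, n = 9 guides), and neither was called. HSD17B6 shared 14 of 107 sites with RDH16, and the pair scored -0.15 and -0.06 in DMSO and -0.04 and 0.14 in apilimod without a call. WWOX, HSD17B10, DHRS7B and DHRSX shared no site with another member. Guide sequences were not analysed here, so whether the guides used fall on shared sites was not tested.

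Outside the rule, 26 other short-chain dehydrogenases were scored, including the left-out HSD17B genes. Of these, 9 were called lower in DMSO and 7 in apilimod, beside 18.9% and 29.0% of all genes. In apilimod against DMSO 1 of the 26 was called lower, beside 0.573% of all genes. Of the left-out genes, HSD17B12, which elongates fatty acids, scored -2.09 ± 2.45 (SD, n = 7 guides) in apilimod, lower than any member except HSD17B10. Among the 4 left-out genes, 3 were called lower in DMSO, 2 in apilimod and 0 in apilimod against DMSO. By the rule without a test, 1 of the 4 was at least 0.5 lower in apilimod against DMSO, beside 3.84% of all genes. Its log2 ratio was -1.33, lower than that of any member. In DMSO their scores lay between -0.74 and -0.51.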

How the data were processed

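Genomic DNA from 3 libraries, 1 per group, was sequenced for integrated guides. The authors deposited raw read counts per guide, made according to their methods and processing notes with cutadapt 4.1, Bowtie2 2.4.5 and MAGeCK 0.5.9.5, and not normalized. Without molecular identifiers the counts are of PCR copies, and limits from counts cover counting error only. The libraries held 24695476 to 26276517 counts.

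Counts plus a pseudocount of 1 were divided by the library total. Guides needed 100 initial counts and genes 6 guides, which left 28042 guides, 2969 genes and 487 control guides. The log2 change of each guide was averaged per gene and set relative to the median control guide. An exact rank-sum test, two-sided, set the guides of each gene against the control guides, with Benjamini-Hochberg adjustment over all 2969 genes. For apilimod against DMSO the test, z and the calls used differences scaled to control guides at 0 and nucleotide synthesis genes at -1, and printed log2 ratios are unscaled. The nucleotide synthesis median was -1.63 in DMSO and -1.89 in apilimod.

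Count models were not used, because 1 library per group leaves no residual degrees of freedom. Python 3.11.15, numpy 2.4.6, scipy 1.17.1 and pandas 2.3.3 were used. The test was checked on simulated data in which the changes of unaffected guides were drawn from the control guides. It therefore could not show how calls behave where gene-targeting guides as a whole lie below the control guides. That simulation was run without scaling, so the scaled test of apilimod against DMSO was not checked. Positions and shared target sites came from GENCODE 44 on hg38. The members and gene lists were chosen with earlier results of these data known. Genes were named if called, if at least 0.5 from the control median, if among the 3 lowest or 3 highest members of a comparison, if WWOX or close copies, or if on the context lists. Alternatives changed the count minimum, guides per gene, pseudocount, library size, gene score, null guides, scaling and the most changed guide. Positions of single guides were not analysed here. Of the context lists, 1 gene is not reported here.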

Additional observations from a re-analysis of the deposited data

Results flagged for a closer look

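WWOX is given here because its difference between the treated libraries itself passed the exact rank-sum test. Its log2 ratio of apilimod to DMSO was -0.61 relative to the control median, with 9 of 10 guides below it. The score was 0.18 in DMSO, which was not called, and -0.50 in apilimod, which was called lower. With 1 library per group, the difference is between 2 libraries and has no replicate check.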

How the results depend on the processing

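No paired analysis was possible because each group holds 1 library. The limits are that a single library stands for each group, and that calls against control guides change with the choice of null. With all gene-targeting guides as the null, members called lower numbered 2 in DMSO, 1 in apilimod and 0 in apilimod against DMSO, where WWOX had z = -2.22, and 1 member was called higher in apilimod. Over all 2969 genes, calls lower under that null numbered 222, 225 and 5, and calls higher in apilimod 82. Under that null 5 members were 0.5 lower and 1 was 0.5 higher in apilimod, 4 were 0.5 higher in apilimod against DMSO, and the median member score was -0.0692 in DMSO and -0.0706 in apilimod. Without the most changed guide of every gene, the HSD11B1L z in apilimod against DMSO and the HSDL2 score in apilimod, neither of them called, reversed to 0.23 and -0.0174, 3 members in DMSO and 5 in apilimod were 0.5 lower, 0 were 0.5 higher in apilimod against DMSO, and the DMSO median was -0.0911. With the median guide as gene score, the DMSO median was -0.10 and 0 members were 0.5 higher in apilimod against DMSO. At a minimum of 300 initial counts, 1 of 40 members was called higher in apilimod, beside 13 of 2778 genes. At that minimum 1 member was 0.5 higher in apilimod and 1 in apilimod against DMSO. At a minimum of 30, the median member score was -0.22 in apilimod and 0.0741 in apilimod against DMSO. Without a minimum, 7 of 43 members were called lower in apilimod, beside 823 of 2970 genes. The medians were then -0.18 and 0.10, 4 members were 0.5 higher in apilimod against DMSO, and the HSDL1 score in apilimod reversed to 0.0691. With N-glycosylation genes as the reference, 1 member was called higher in apilimod against DMSO, beside 54 of 2969 genes. Under the alternatives, scores 0.5 from the control median were counted for members only, so those counts have no share of all genes beside them. The cause of these changes was not tested. Of all values, 135 counts and medians stayed within 1.5 times or 0.1 on the log2 scale and 25 did not. Of single members' values, 270 kept their direction and side of the threshold, 23 lost a call, 3 gained one and 3 changed sign, among them HSDL1, which also lost its call. WWOX kept its call in apilimod against DMSO in 11 of 12 alternatives. Among them were control guides of at least 200 initial counts (z = -2.25), a null chosen after seeing the data. Not all alternatives could move a call, though all enter these tallies. Library size from control guides shifts all guides alike, and fewer guides per gene left the WWOX guides unchanged. Against the initial population, the median gene score does not enter the test. The tallies therefore overstate how far calls were probed.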
